A study of Solanum lycopersicum with 6 samples.

Results

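The genes that carry carotenoid synthesis from phytoene to lycopene were followed in the exocarp, the outer layer of the tomato fruit. The genes were taken by identifier as the enzymes of these steps, and earlier results of these data were known when the steps were chosen. They are the phytoene synthases PSY1, PSY2 and PSY3, phytoene desaturase (PDS), 15-cis-zeta-carotene isomerase (Z-ISO), zeta-carotene desaturase (ZDS) and the carotenoid isomerase CRTISO. Of these 7 genes, 6 were listed in every library, out of 21708 genes listed in at least 1 library. PSY3 (Solyc01g005940), known mainly from roots, was listed in 0 of 6 tables and has no value here. The product description of each of the 6 listed genes names the enzyme given by its label.

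RNA was sequenced from 3 libraries of the nor-like1 mutant, whose genotype label is a knockout of SlNOR-like1, a ripening regulator of the NAC family, and which is called nor-like1-1 in the authors' comparison. The other 3 libraries were wild-type (WT) tomato, and all 6 were from the stage labelled MG. The cultivar, the mutant allele and whether the libraries came from separate plants or fruits are not given in the labels. Each p-value therefore sets the genotype difference only against the spread between these libraries, and that spread may be technical. Total expected counts, the estimated reads per gene from the counting program RSEM, were 8503210 to 11023036 in nor-like1 and 11459875 to 17578533 in WT. Levels are given as FPKM, fragments per kilobase of transcript scaled to the mapped fragments of the library, which can be compared between genes.

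Carotenoids are plastid pigments built from the isoprenoid geranylgeranyl diphosphate. Phytoene synthase joins a pair of these units into colourless phytoene, which is the first committed step and the one best known for setting the flux. PDS and ZDS then add double bonds, Z-ISO and CRTISO turn cis bonds to trans, and the product is lycopene, the red pigment of ripe tomato. In tomato PSY1 serves the ripening fruit and PSY2 the green tissues. PSY1 is the gene lost in the yellow-flesh mutant, and CRTISO the gene lost in the tangerine mutant.

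The knockout label was checked first. The SlNOR-like1 transcript (Solyc07g063420.3) had 15.99, 10.93 and 11.72 FPKM in nor-like1 replicates 1 to 3, against 83.78, 75.19 and 81.17 FPKM in WT replicates 1 to 3. It was lower in every nor-like1 library, with a log2 fold change of -2.61 (SE 0.162; edgeR quasi-likelihood adjusted p = 0.000532). Of 8 exocarp marker genes, SHN3 (Solyc06g053240) was listed in no library. Each of the other 7 was above 1 FPKM in every library. The chalcone synthase CHS1 averaged 4.03 FPKM in nor-like1 and 4.84 FPKM in WT, and the wax enzyme CER6 226.2 FPKM in nor-like1 and 127.3 FPKM in WT. Of the 7, CER6 was called higher, the cutin enzymes GPAT6 and CYP86A69 were called lower and 4 were not called.

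PSY2, a phytoene synthase, fell to 0.703 and PDS, the first desaturase, to 0.741 of the WT level in nor-like1. ZDS, Z-ISO and CRTISO had ratios between 0.823 and 0.834 and did not pass the test. PSY1, the most abundant of the 6, spread more widely between libraries of 1 genotype than its means differed between genotypes. Of the 6 genes tested, 2 were lower, 0 higher and 4 not called by edgeR's quasi-likelihood test, with 0.05 as the limit on the Benjamini-Hochberg adjusted p. At an unadjusted p below 0.05 these counts were 3 lower and 0 higher, and DESeq2 and limma on log2(FPKM + 1) gave 2 lower and 0 higher after adjustment. Over the 16380 genes tested, 11.4% were called lower and 10.5% higher, 21.9% in all. The median log2 fold change was -0.28 over the 6 genes and -0.01 over all genes tested, and none of the 6 changed by 2-fold or more.

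**Figure D1:**
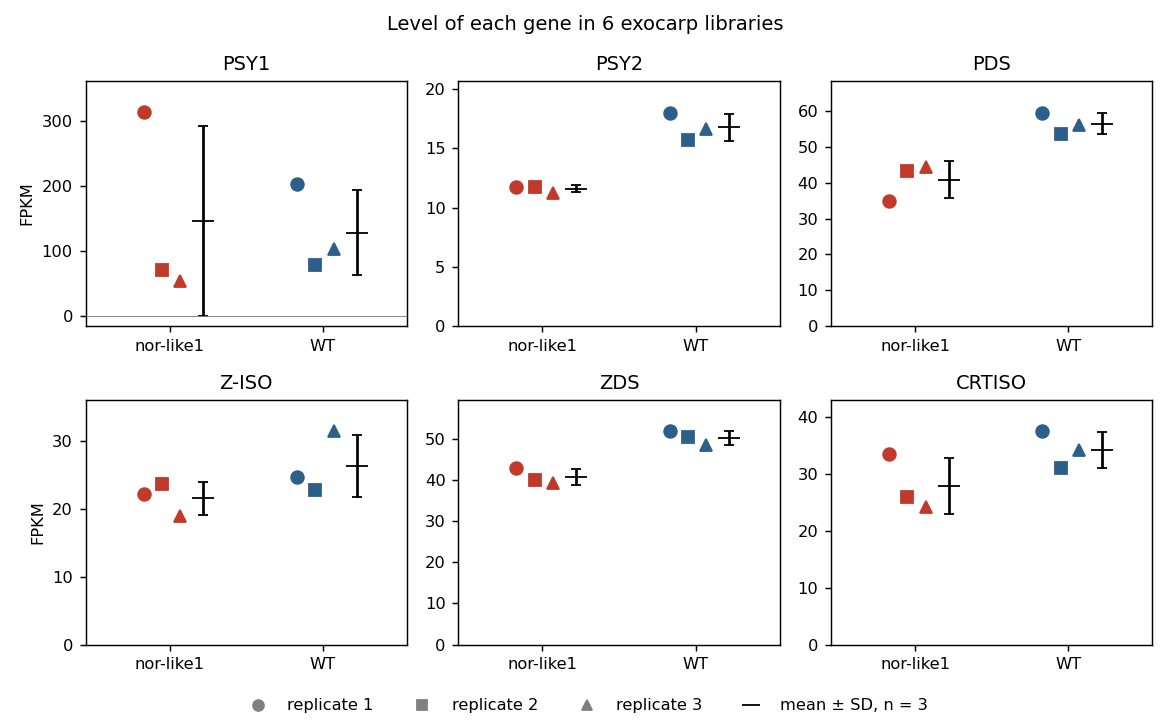
FPKM (y axis, a separate scale for each gene) of the 6 listed genes in the 3 nor-like1 and the 3 WT libraries, with symbols for the replicate number and a bar for the mean ± SD. PSY1 is highest in replicate 1 of both genotypes, 314.32 and 203.22 FPKM, while PSY2, PDS and ZDS show no overlap between the genotypes, with nor-like1 below WT.

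PSY1 (Solyc03g031860.3), the fruit phytoene synthase, measured 314.32, 69.77 and 53.38 FPKM in nor-like1 replicates 1 to 3 and 203.22, 78.54 and 102.28 FPKM in WT replicates 1 to 3. The libraries numbered 1 were the highest of their genotype, and the genotypes overlapped. Means were 145.8 ± 146.2 FPKM in nor-like1 and 128.0 ± 66.2 FPKM in WT (SD, n = 3 each). With a log2 fold change of 0.19 and an SE of 0.745 (edgeR adjusted p = 0.872), the SE exceeded the difference. The highest PSY1 library held 5.89 times the lowest in nor-like1 and 2.59 times in WT. For the other 5 genes that ratio was at most 1.38 within either genotype.

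The direction of the PSY1 difference changed with single libraries and with the scale or model used. Without nor-like1 replicate 1 the log2 fold change was -1.04 (edgeR adjusted p = 0.17), and without WT replicate 2 it was -0.06 (adjusted p = 0.972). Without nor-like1 replicates 2 and 3 in turn it was 0.53 and 0.59, without WT replicate 1 it was 0.71 and without WT replicate 3 it was 0.04. Leaving out both libraries numbered 1, an alternative chosen after seeing the data, gave -0.52 (SE 0.205; adjusted p = 0.142). On log2(FPKM + 1) the difference with all 6 libraries was -0.16 (limma adjusted p = 0.89). The within-genotype SD of PSY1 on the log2 CPM scale was 1.10, larger than that of 99.1% of the 13603 genes whose mean reached 5 CPM, the count scaled to library size.

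PSY2 (Solyc02g081330.4), the phytoene synthase of green tissues, measured 11.73, 11.77 and 11.26 FPKM in nor-like1 replicates 1 to 3, against 17.99, 15.72 and 16.63 FPKM in WT replicates 1 to 3. Every nor-like1 library lay below every WT library. Means were 11.59 ± 0.284 FPKM in nor-like1 and 16.78 ± 1.14 FPKM in WT (SD, n = 3 each). PSY2 fell by 0.51 on the log2 scale (SE 0.102; edgeR adjusted p = 0.0158). The PSY2 call was lost on omitting nor-like1 replicate 2 (edgeR adjusted p = 0.0563) or 3 (0.0564), or WT replicate 1 (0.0614) or 2 (0.0501). The log2 fold change lay between -0.55 and -0.44 in these and the other alternatives.

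PDS (Solyc03g123760.3), the enzyme that desaturates phytoene, measured 34.84, 43.25 and 44.36 FPKM in nor-like1 replicates 1 to 3, against 59.46, 53.65 and 56.09 FPKM in WT replicates 1 to 3. The genotypes did not overlap, and nor-like1 replicate 1, the library with the most PSY1, had the least PDS. Means were 40.82 ± 5.21 FPKM in nor-like1 and 56.40 ± 2.92 FPKM in WT (SD, n = 3 each). PDS fell by 0.43 on the log2 scale (SE 0.125; edgeR adjusted p = 0.0474), just under the threshold. The call was lost without nor-like1 replicates 1, 2 and 3 (adjusted p = 0.0766, 0.0952 and 0.0874) and WT replicates 1 and 2 (0.151 and 0.118), and in 11 of 17 alternatives in all. The direction was negative in all 17.

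ZDS (Solyc01g097810.3), the second desaturase, measured 42.87, 39.97 and 39.36 FPKM in nor-like1 replicates 1 to 3, against 51.86, 50.40 and 48.46 FPKM in WT replicates 1 to 3. The genotypes did not overlap. Means were 40.73 ± 1.88 FPKM in nor-like1 and 50.24 ± 1.71 FPKM in WT (SD, n = 3 each), and the log2 fold change of -0.28 (SE 0.0949) had an edgeR adjusted p of 0.0742. It was called in 0 of 17 alternatives, with a negative value in each. PSY2, PDS and ZDS were thus 3 of 6 genes without overlap between genotypes and lower in nor-like1. Among all tested genes 23.8% were of that kind, and 42.8% did not overlap in either direction.

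The isomerases overlapped between genotypes. Z-ISO (Solyc12g098710.2), which acts between PDS and ZDS, measured 22.12, 23.67 and 18.89 FPKM in nor-like1 replicates 1 to 3 and 24.65, 22.79 and 31.37 FPKM in WT replicates 1 to 3. Its log2 fold change was -0.26 (SE 0.142; edgeR adjusted p = 0.219). CRTISO (Solyc10g081650.2), which forms all-trans lycopene, measured 33.40, 25.94 and 24.22 FPKM in nor-like1 replicates 1 to 3 and 37.40, 31.05 and 34.07 FPKM in WT replicates 1 to 3. Its log2 fold change was -0.27 (SE 0.149; adjusted p = 0.222). Of the nor-like1 libraries, replicate 1 alone lay within the WT range for CRTISO, whereas for Z-ISO replicate 2 did.

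Of the 6 genes tested here, 5 thus had a negative log2 fold change, against 50.5% of all genes tested. The remaining gene, PSY1, was at 0.19. For each of the 5 the value was negative in all 17 alternatives, which reuse the same libraries and are not independent. Summed over these 5 genes the level was 145.0, 144.6 and 138.1 FPKM in nor-like1 replicates 1 to 3, against 191.4, 173.6 and 186.6 FPKM in WT replicates 1 to 3. This sum, which leaves out PSY1 after its values were seen, was lower in every nor-like1 library, at 0.775 of WT. With PSY1 included the sum was 459.3, 214.4 and 191.5 FPKM in nor-like1 replicates 1 to 3 and 394.6, 252.2 and 288.9 FPKM in WT replicates 1 to 3, and the genotypes overlapped. In bulk tissue, fewer cells of a type that express these genes and less RNA per cell cannot be told apart. The authors' deposited table gave log2 fold changes of -0.49 for PSY2 (adjusted p = 0.0074) and -0.42 for PDS (adjusted p = 0.0278). For the other 4 genes its values lay between -0.27 and 0.11 with adjusted p of 0.101 or above.

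**Figure D2:**
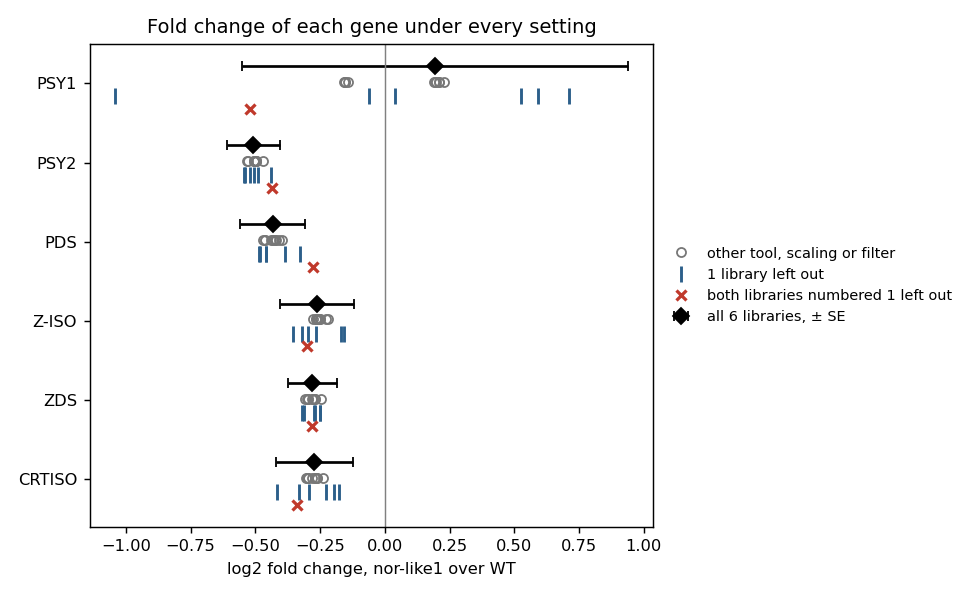
Log2 fold change, nor-like1 over WT (x axis), of the 6 listed genes (y axis), with all 6 libraries (diamond, ± SE), with other tools, scalings or filters (circles), with 1 library left out (ticks) and with both libraries numbered 1 left out (cross). PSY1 runs from -1.04 to 0.71, while the other 5 genes stay below 0 under every setting.

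The count of genes called across the transcriptome also varied with the library left out. It was 1713 higher and 1872 lower with all 6 libraries. On omitting nor-like1 replicate 2 it was 746 and 660, nor-like1 replicate 3 854 and 797, WT replicate 1 794 and 708, and WT replicate 2 596 and 543. It was 1839 and 1900 without nor-like1 replicate 1, and 2352 and 2390 without WT replicate 3. The direction of these 5 genes was the same in each of those fits.

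The order of the levels differed little between libraries. In WT it was PSY1, PDS, ZDS, CRTISO, Z-ISO and PSY2 by mean FPKM. PDS and ZDS did not overlap in WT, and CRTISO and Z-ISO did. In nor-like1 PDS and ZDS were at 40.82 ± 5.21 and 40.73 ± 1.88 FPKM (SD, n = 3 each) and overlapped. CRTISO at 27.85 ± 4.88 FPKM and Z-ISO at 21.56 ± 2.44 FPKM did not overlap there. PSY2 was the lowest in each of the 6 libraries and PSY1 the highest. PSY1 held 68.4%, 32.6% and 27.9% of the summed FPKM of the 6 genes in nor-like1 replicates 1 to 3, against 51.5%, 31.2% and 35.4% in WT replicates 1 to 3.

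Ratios within a library do not depend on how libraries are scaled. The FPKM ratio of PSY1 to PSY2 was 26.8, 5.93 and 4.74 in nor-like1 replicates 1 to 3 and 11.3, 4.996 and 6.15 in WT replicates 1 to 3. The log2 ratio differed by 0.37 between nor-like1 and WT (two-sided exact permutation p = 0.9). For PSY1 to PDS the ratio was 9.02, 1.61 and 1.203 in nor-like1 and 3.42, 1.46 and 1.82 in WT, a log2 difference of 0.31 (exact permutation p = 0.9). Without nor-like1 replicate 1 these differences were -0.41 and -0.58. For PDS to ZDS the ratio was 0.813, 1.08 and 1.13 in nor-like1 and 1.147, 1.06 and 1.16 in WT, a log2 difference of -0.17 (exact permutation p = 0.3). Adjusted over the 3 ratios each p was 0.9, and with 3 libraries against 3 the smallest p possible is 0.1.

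PSY1 was set beside genes of ripening by library. PSY1 and CRTISO were highest in replicate 1 of both genotypes, and so was ZDS by a small margin. This held for 6 of 11 ripening stage markers and for 11.3% of all genes tested. E8 (Solyc09g089580.4), an ethylene-induced ripening gene, measured 172.26, 15.75 and 7.63 FPKM in nor-like1 replicates 1 to 3 and 694.19, 87.70 and 72.10 FPKM in WT replicates 1 to 3. The fruit polygalacturonase PG2a (Solyc10g080210.2), which breaks down pectin, measured 1.28 and 0.35 FPKM in nor-like1 replicates 1 and 2 and was absent from the table of replicate 3. In WT replicates 1 to 3 it measured 31.71, 1.86 and 0.54 FPKM. E8 and PG2a are among the 6, whereas ACS2, ACS4, ACO1, PL and CEL2 are not. The ethylene-forming oxidase ACO1 (Solyc07g049530.3) measured 1166.58, 1375.88 and 1045.95 FPKM in nor-like1 replicates 1 to 3. ACO1 in WT replicates 1 to 3 was at 181.33, 357.70 and 1153.45 FPKM. ACS2 and PL were higher in nor-like1 without overlap, and the median log2 fold change of the 11 markers was 0.38. The part of a difference in ripening stage between libraries in the PSY1 values was not tested.

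**Figure D3:**
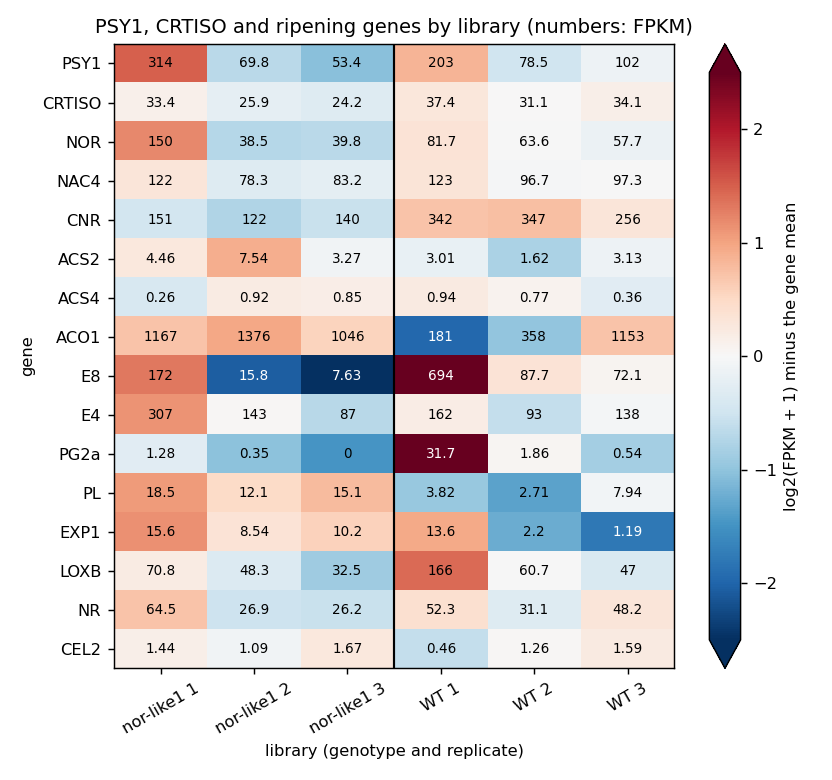
FPKM (numbers) of PSY1, CRTISO, 3 ripening regulators and 11 ripening stage markers (rows) in the 3 nor-like1 and 3 WT libraries (columns), coloured by log2(FPKM + 1) minus the mean of the gene. E8, LOXB, NR and NOR share with PSY1 the highest value of each genotype in replicate 1, whereas ACO1 is lowest in WT replicate 1.

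The genes with a pattern nearest to PSY1 were found by the root mean square difference of centred log2 CPM over the 6 libraries, among 13603 genes. The nearest was an ethylene-forming 1-aminocyclopropane-1-carboxylate oxidase (Solyc02g036350.3), at a difference of 0.33 against a spread of PSY1 itself of 0.90. It measured 47.67, 13.68 and 13.19 FPKM in nor-like1 replicates 1 to 3 and 51.33, 24.43 and 20.21 FPKM in WT replicates 1 to 3. The next was NOR (Solyc10g006880.3; difference 0.35), the NAC factor needed for ripening. NOR measured 149.61, 38.51 and 39.83 FPKM in nor-like1 replicates 1 to 3 and 81.67, 63.56 and 57.74 FPKM in WT replicates 1 to 3. An ABC transporter of the C family (Solyc05g014390.4; 0.36), a flavin monooxygenase whose best protein hit is YUCCA8 (Solyc06g008050.4; 0.39) and alcohol dehydrogenase 2 (Solyc06g059740.4; 0.40) followed. NOR, like PSY1, was not called (log2 fold change 0.18, edgeR adjusted p = 0.837), and without nor-like1 replicate 1 it was -0.77 (adjusted p = 0.0305).

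Genes that supply the precursor moved in both directions. Of 12 isoprenoid precursor genes tested, 3 were higher, 3 lower and 6 not called, with a median log2 fold change of -0.17. HDR (Solyc01g109300.3), the last enzyme of the plastid precursor pathway, had 347.44, 279.13 and 295.83 FPKM in nor-like1 replicates 1 to 3, against 577.44, 533.14 and 543.96 FPKM in WT replicates 1 to 3. It fell by 0.82 on the log2 scale (SE 0.131; edgeR adjusted p = 0.00826) and was called in all 17 alternatives. DXR (Solyc03g114340.3), an early enzyme of the same pathway, fell by 0.40 (adjusted p = 0.0304), and a small subunit of geranylgeranyl diphosphate synthase (SSU-II, Solyc09g008920.3) by 0.66 (adjusted p = 0.0264). The isopentenyl diphosphate isomerase IDI2 (Solyc05g055760.3) rose 1.65-fold to 37.43 ± 1.87 FPKM in nor-like1, against 22.98 ± 3.04 FPKM in WT (SD, n = 3 each; adjusted p = 0.00795). CMK (Solyc01g009010.3) and MDS (Solyc08g081570.3), consecutive enzymes of the plastid pathway, rose 1.38-fold and 1.39-fold (adjusted p = 0.0142 and 0.0408). The fruit synthase GGPPS2 (Solyc04g079960.1) was low, at 1.18 to 2.40 FPKM in nor-like1 and 2.31 to 3.93 FPKM in WT, and was not called (adjusted p = 0.22).

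Several of these calls were lost with 1 library left out, whichever of several libraries that was. Without nor-like1 replicates 2 and 3 in turn the edgeR adjusted p was 0.0994 and 0.0794 for DXR, 0.0821 and 0.086 for SSU-II, and 0.131 and 0.098 for MDS. It was 0.0549 for DXR without nor-like1 replicate 1. Without WT replicate 1 it was 0.116 for DXR, 0.077 for SSU-II, 0.054 for CMK and 0.123 for MDS. Without WT replicate 2 it was 0.101, 0.0975, 0.0683 and 0.0801 for the same genes in that order, and without WT replicate 3 it was 0.0665 for MDS.

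After lycopene, 3 xanthophyll enzymes were lower, and a cyclase and a dioxygenase were higher. Of 10 genes tested, 2 were higher, 3 lower and 5 not called, with a median log2 fold change of -0.05. Zeaxanthin epoxidase (ZEP, Solyc02g090890.4) fell to 51.09 ± 7.35 FPKM in nor-like1, against 134.8 ± 20.1 FPKM in WT (SD, n = 3 each; log2 fold change -1.38, edgeR adjusted p = 0.00403). The beta-carotene hydroxylase CHYB1 (Solyc06g036260.3) fell to 7.28 ± 1.66 FPKM in nor-like1, against 19.05 ± 1.48 FPKM in WT (log2 fold change -1.37, adjusted p = 0.00492). The other hydroxylase, CHYB2 (Solyc03g007960.3), was at 26.31 ± 10.04 FPKM in nor-like1 and 21.39 ± 9.29 FPKM in WT. CHYB2 was not called (log2 fold change 0.32, edgeR adjusted p = 0.565). Violaxanthin de-epoxidase (VDE, Solyc04g050930.3) fell by 0.55 (adjusted p = 0.0149). CYC-B (Solyc06g074240.3), the chromoplast lycopene beta-cyclase that turns lycopene into beta-carotene, rose to 1.78, 2.08 and 3.46 FPKM in nor-like1 replicates 1 to 3, against 0.52, 0.37 and 0.48 FPKM in WT replicates 1 to 3. Its log2 fold change was 2.39 (SE 0.371; adjusted p = 0.00771), at a low level in both genotypes. On log2(FPKM + 1) it was 1.21 by limma, and over all 17 alternatives it lay between 1.21 and 2.69. NCED2 (Solyc08g016720.1), a dioxygenase that cleaves carotenoids toward abscisic acid, rose 1.65-fold to 16.14 FPKM in nor-like1, against 9.90 FPKM in WT (adjusted p = 0.0337). NCED1 (Solyc07g056570.1) was more abundant, at 163.5 ± 54.0 FPKM in nor-like1 and 151.6 ± 83.9 FPKM in WT. NCED1 was not called (edgeR adjusted p = 0.83).

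ZEP, CHYB1 and CYC-B were called in all 17 alternatives. The edgeR adjusted p of VDE was 0.0578 without nor-like1 replicate 2, and 0.0601 and 0.0683 without WT replicates 1 and 2. That of NCED2 was 0.0527 and 0.0968 without nor-like1 replicates 1 and 3, and 0.104 and 0.116 without WT replicates 1 and 2. The genes after lycopene that changed most, ZEP, CHYB1 and CYC-B, were picked by their values. Their log2 fold changes were larger in size than that of any of the 6 genes from phytoene to lycopene. The 5 tested genes after lycopene that were not called lay between -0.26 (LCYB1) and 0.32 (CHYB2). The precursor gene HDR, at -0.82, also exceeded the 6 in size. The difference between the steps was not tested.

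**Figure D4:**
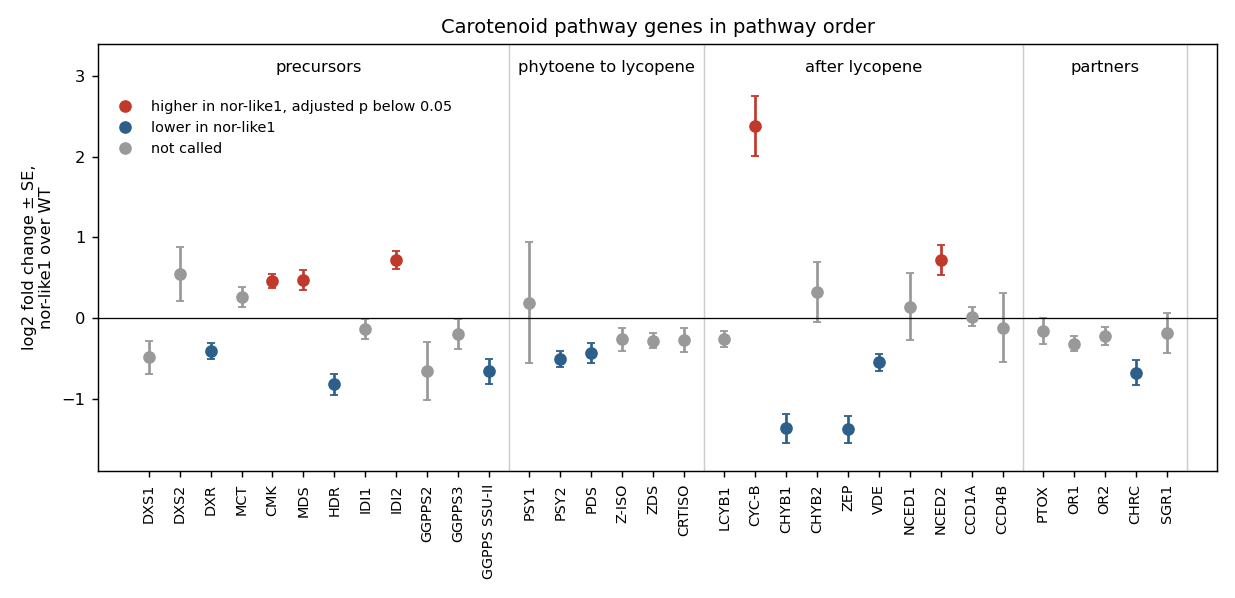
Log2 fold change ± SE, nor-like1 over WT (y axis), of the tested genes of precursor supply, of the steps from phytoene to lycopene, of the steps after lycopene and of plastid partner proteins (x axis), red where called higher in nor-like1, blue where called lower and grey where not called. The 6 genes from phytoene to lycopene lie between -0.51 and 0.19. After lycopene the extremes are -1.38 for ZEP and 2.39 for CYC-B, and the 5 genes not called lie between -0.26 and 0.32.

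Of 5 plastid partners of the pathway, the fibrillin-type protein CHRC (Solyc02g081170.5), which holds carotenoids in plastids, was lower and 4 were not called. CHRC fell by 0.68 on the log2 scale (SE 0.155; edgeR adjusted p = 0.0239). The adjusted p was 0.0847 and 0.0849 without nor-like1 replicates 2 and 3, and 0.0726 and 0.0811 without WT replicates 1 and 2. The plastid terminal oxidase PTOX (Solyc11g011990.2), which takes up the electrons of the desaturases, was at -0.16 on the log2 scale, nor-like1 over WT (adjusted p = 0.508). The ORANGE chaperones, which stabilise phytoene synthase in Arabidopsis, had log2 fold changes of -0.32 (OR1, Solyc03g093830.3; adjusted p = 0.0589) and -0.22 (OR2, Solyc09g010110.3; adjusted p = 0.189). The stay-green protein SGR1 (Solyc08g080090.3), which is known to bind PSY1 in tomato, had -0.18 (adjusted p = 0.623).

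Of 11 ripening and light regulators tested, SlNOR-like1 included, 3 were lower and 8 not called. RIN (Solyc05g012020) and ERF6 (Solyc01g065980), of the same list, were listed in no library and have no value. CNR (Solyc02g077920.4), an SBP-box factor of ripening, fell to 137.8 ± 14.2 FPKM in nor-like1, against 315.0 ± 51.6 FPKM in WT (SD, n = 3 each; edgeR adjusted p = 0.00575). GLK2 (Solyc10g008160.3), which promotes chloroplast development in green fruit, fell to 0.242 of WT (adjusted p = 0.00917), at 1.58 ± 0.695 FPKM in nor-like1 and 6.54 ± 0.512 FPKM in WT. Both were called in all 17 alternatives. PIF1a (Solyc09g063010.5), a known repressor of PSY1 in tomato, measured 4.65, 1.69 and 2.49 FPKM in nor-like1 replicates 1 to 3 and 4.32, 4.21 and 2.98 FPKM in WT replicates 1 to 3 and was not called (adjusted p = 0.499). Of the 11 ripening stage markers, the pectate lyase PL (Solyc03g111690.4) was higher and 10 were not called. PL rose 3.19-fold (edgeR adjusted p = 0.0308). The PL call was lost on omitting nor-like1 replicate 1 (0.0638), 2 (0.0702) or 3 (0.0821), or WT replicate 1 (0.089) or 2 (0.0691).

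A further 3 genes are described as enzymes of the same steps. The carotene isomerase homolog Solyc05g010180.4 measured 5.89, 8.16 and 4.80 FPKM in nor-like1 replicates 1 to 3, against 3.82, 4.36 and 3.08 FPKM in WT replicates 1 to 3. Its log2 fold change was 0.77 (SE 0.238; edgeR adjusted p = 0.0572), opposite in sign to that of CRTISO. A phytoene dehydrogenase-like gene (Solyc02g083410.4) and a gene of the squalene and phytoene synthase family (Solyc08g007440.2) had log2 fold changes of 0.23 and -0.29, with adjusted p of 0.483 and 0.611. Of these genes edgeR called 0, with 1 at an unadjusted p below 0.05, and DESeq2 called 1 higher.

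Markers of other tissues were measured beside these genes. Of 20 genes described as seed storage proteins or oleosins, 13 were below 1 FPKM in every library, and their summed level was 17.9 to 22.8 FPKM in nor-like1 and 25.1 to 40.1 FPKM in WT. Of 9 genes whose description or best protein hit names xylem or sieve elements, 7 were below 1 FPKM in every library. These 7 included every sieve element occlusion gene. The 2 that could be tested were cysteine proteases, and both were called higher in nor-like1. Solyc02g076730.4, whose description (cysteine protease CP14) names no vascular tissue, averaged 28.62 FPKM in nor-like1 and 3.09 FPKM in WT. Solyc04g080873.2, described as xylem cysteine proteinase 1, averaged 26.99 FPKM in nor-like1 and 18.75 FPKM in WT. The summed level of the 9, nearly all of it from these 2 proteases, was 45.2 to 64.5 FPKM in nor-like1 and 21.2 to 23.3 FPKM in WT. The part of these tissues in the lower levels of PSY2 and PDS was not tested.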

How the data were processed

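Tables of RSEM expected counts (estimates, of which 6.04% to 6.69% in a library were not whole) and FPKM were deposited for each library, per the file headers. They list genes with a value above 0, and 0 was entered for a gene that only other libraries list. The submitters' processing notes name HISAT2, StringTie, Bowtie2 and RSEM. Build, annotation and strand: not given in the sources used here. The authors' own DESeq2 comparison holds a log2 fold change and a p-value for each gene, per the file headers.

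After rounding, expected counts were fitted in edgeR 4.0.16 (R 4.3.3; TMM, filterByExpr, robust quasi-likelihood) on genotype alone. This covered 16380 genes, with Benjamini-Hochberg adjustment over all of them, and the code was tested on simulated data. SE is the size of the log2 fold change over the root of F. DESeq2 1.42.0 and limma 3.58.1 served as alternatives. Libraries of 1 genotype differed beyond sampling noise (chi-square per gene 10.9 to 49.1).

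The genes and lists were chosen with earlier results of these data known. A list gene was kept where its description matched a pattern, which left out HDS, IDI3, CYP97A29, CYP97C11 and AP2a. RIN, ERF6, SHN3, CCD1B and CCD7 were, like PSY3, listed in no library and have no value. Named are the 6 listed genes, SlNOR-like1, NOR, each called gene of the pathway and ripening lists and the patterns nearest to each of the 6 genes. Other genes, such as PIF1a, PTOX, OR1, OR2, SGR1, GGPPS2, GGPPS3, LCYB1, CHYB2, NCED1, E8, PG2a, ACO1 and ACS2, were picked for mention after their values were seen. Promoter motifs were not analysed here. The expected counts of PSY1, PSY2 and the other 4 listed genes were whole numbers in every library.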

Additional observations from a re-analysis of the deposited data

How the results depend on the processing

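With 1 library left out in turn, the genes called higher ranged from 596 to 2352 and lower from 543 to 2390, the genes of the 7 called lower from 0 to 2, and the other pathway genes called higher from 2 to 6 and lower from 5 to 10. The log2 fold change ranged from -1.04 to 0.71 for PSY1, -0.55 to -0.44 for PSY2, -0.49 to -0.33 for PDS and -0.77 to 0.50 for NOR, and the log2 ratio difference from -0.41 to 0.84 for PSY1 to PSY2 and -0.58 to 0.87 for PSY1 to PDS. Leaving out both libraries numbered 1 was chosen after seeing the data. It gave 951 genes lower, 0 of the 7 genes lower and 3 of the other list genes higher. Log2 fold changes were then -0.52 for PSY1, -0.44 for PSY2, -0.28 for PDS and -0.60 for NOR. PDS lost its call, leaving 1 gene lower, with counts thinned to the smallest library (-0.41), limma on log2(FPKM + 1) with no filter (-0.46), no low-count filter (-0.43), upper-quartile factors (-0.40) and the replicate block (-0.44). PSY1 and NOR turned negative with limma on log2(FPKM + 1), with or without the filter (-0.16 and -0.12), and on log2(FPKM + 0.1) (-0.16 and -0.13). With the replicate block they were -0.14 and -0.11. The replicate numbers were not taken to pair the samples, since same-numbered libraries gave correlations of deviations of 0.222, -0.23 and 0.018; with the block 1364 genes were called higher and 1262 lower. The block also left 2 precursor genes higher and 1 lower, with edgeR adjusted p of 0.0815 for DXR, 0.0516 for MDS and 0.0507 for SSU-II, and called 2 ripening stage markers lower, against 0 without it, and 1 further homolog higher, against 0. The causes were not tested. Z-ISO, ZDS and CRTISO kept their direction and were not called in the alternatives run. Expected counts ran from 239 to 7076 over the 6 genes and 6 libraries, and counting error was not separated from the spread between libraries.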

Other observations

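The table of each library gives a length per gene, which in RSEM output is weighted by the isoforms found. PSY1, PSY2 and PDS had 3 transcripts in the tables, Z-ISO and CRTISO 2, and ZDS 1. The length of Z-ISO was 1891, 1797 and 1834 bases in nor-like1 replicates 1 to 3 and 1921, 1814 and 1798 bases in WT replicates 1 to 3. The libraries numbered 1 had the longest value in both genotypes, and the genotypes overlapped. The isoforms themselves are not separated in these tables.

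Likeness of pattern was measured by the root mean square difference of centred log2 CPM over the 6 libraries, whose depth all these values share. The search covered 13603 genes. The spread of the gene itself was 0.26 for PSY2, 0.25 for PDS, 0.20 for Z-ISO, 0.15 for ZDS and 0.21 for CRTISO. Whether the genes named below are regulated together was not tested. The 3 genes nearest to PSY2 were a chloroplast ribosomal protein (Solyc03g034190.3, difference 0.024), the ethylene response factor JERF1 (Solyc06g063070.3, 0.030) and hydroxycinnamoyl CoA quinate transferase (Solyc07g005760.3, 0.033). The nearest to ZDS was a serine/arginine-rich splicing factor (Solyc03g026240.4, 0.019), the nearest to Z-ISO a ubiquitin-like-specific protease (Solyc04g026220.4, 0.039) and the nearest to CRTISO a metallo-hydrolase (Solyc03g121670.4, 0.034). For PDS it was an undescribed protein (Solyc07g062440.1, 0.038).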
